A study of Eucalyptus nitens with 12 samples.

Results

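The trees compared here were low kraft pulp yield (KPY) trees of Eucalyptus nitens, a eucalypt grown in plantations for pulp, from the Florentine and Meunna trials in Tasmania. KPY is the share of wood recovered as pulp, and the low KPY trees came from the low extreme of each trial. The 3 low KPY bulks of Florentine were set against the 3 low KPY bulks of Meunna, 6 of the 12 libraries of the series, and the other 6 are high KPY bulks of the same trials. All trees are labelled as 20 years old, were not treated and grew outdoors. Each bulk is a pool of RNA from cambial scrapings of 11 trees in Florentine and of 7 or 8 trees in Meunna, so tree-to-tree spread is averaged within a bulk. Site, sampling month and year (March in Meunna and May of the next year in Florentine), trees per bulk and the transcript models on which reads were counted all differ together between the sides, and cannot be told apart in this comparison. The paper gives the same planting year for both trials, so the Florentine trees were older when sampled, despite the shared label. It describes sequencing trial by trial, with 6 bulks on a lane, so sequencing may differ with site too. The labels name the tissue xylem and the protocol cambial scrapings.

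The vascular cambium is the sheet of dividing cells that produces wood to the inside and phloem to the outside. Newly formed wood cells expand, lay down a thick secondary wall of cellulose and xylan, fill it with lignin and die. Cellulose is made at the cell surface by cellulose synthase complexes that follow microtubules, lignin is made from phenylalanine through the phenylpropanoid pathway, and NAC and MYB transcription factors switch the wall genes on. Spring and summer growth slows towards winter.

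Genes were compared where an E. grandis gene id had exactly 1 transcript in each of the 2 tables. This held for 12224 of the 18778 gene ids in either table, and another 3960 ids in both tables had more than 1 transcript in a table. Counts on these 12224 genes came to between 29767375 and 35844263 in the Florentine bulks and between 32742093 and 45987477 in the Meunna bulks, which is 64.7 to 66.8% of all counts of a library. Levels are CPM (counts scaled to a common library size) after TMM, a normalization that assumes most genes do not change, and 1 CPM stood for 27.8 to 47.2 counts. CPM are not divided by transcript length, so levels were compared between bulks and not between genes. Distances between bulks on the log2 CPM scale were 45.1 to 69.8 within a site and 68.2 to 107 between sites.

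Of the 12224 genes, 1392 (11.4%) differed between the sites in low KPY trees at a false discovery rate (FDR) of 0.05 by the quasi-likelihood test of edgeR, 618 (5.06%) higher in Florentine and 774 (6.33%) higher in Meunna. The balance depended on scaling and library, with 542 higher in Florentine and 985 in Meunna with library size only, and 959 and 767 without Florentine replicate 2. Log2 fold changes are given as Florentine over Meunna, so a negative value is higher in Meunna. They ran from -5.92 to 10.44 with a median of -0.01 over all genes, and the called genes had a median absolute log2 fold change of 1.1. More than 2-fold were 355 called genes higher in Florentine and 416 higher in Meunna, and more than 4-fold 73 and 107. In all 1392 called genes the 3 bulks of one site lay above the 3 of the other, as they did in 4575 (37.4%) of all genes, and 3868 genes had an unadjusted p under 0.05. The count rested on single libraries: it was 485, 1726 and 200 without Florentine replicate 1, 2 or 3, and 571, 611 and 907 without Meunna replicate 1, 2 or 3.

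Genes of wood formation were among the well expressed genes higher in Florentine, with differences near 2- to 4-fold. Among 18 genes annotated to lignin and phenylpropanoids 5 were higher in Florentine and 0 in Meunna, with a median log2 fold change of 0.99. Of 51 genes of tubulin and the cytoskeleton 7 were higher in Florentine and 0 in Meunna (median 0.75), of 44 genes of secondary wall polysaccharides and arabinogalactan proteins 6 and 2 (median 0.84), and of 34 NAC and MYB genes 5 and 1 (median 0.55). Over all 12224 genes the median was -0.01 and the shares called 5.06% and 6.33%.

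The names behind these lists were not drawn evenly from the genome. They come from the study's supplementary tables, which name 2663 of the tested genes and list transcripts chosen on these same libraries. One source, used here in part, holds 1259 tested genes that were all lower in low than in high KPY trees at Meunna. That listing used the same Meunna bulks as the comparison made here, and these genes had a median log2 fold change of 0.85, with 200 called higher in Florentine and 6 higher in Meunna. In high KPY trees, where the listing used the high KPY bulks of Meunna as its upper side, their median was 0.35. The 869 genes named from calls at Florentine, and not from the Meunna source, had a median of -0.10 (31 higher in Florentine, 56 in Meunna). For the 535 genes named from allelic calls alone the median was 0.00 (26 and 32). The 9561 genes without a name had a median of -0.06 (361 and 680). The part of the Meunna source used here holds only genes that fell in low KPY trees. Genes that rose there can thus be among the 869 genes, be named from allelic calls or lack a name. The lists, including those of stress and defence, can therefore miss such genes. The count of a list that draws on these tables is not independent evidence of its direction.

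**Figure D1:**
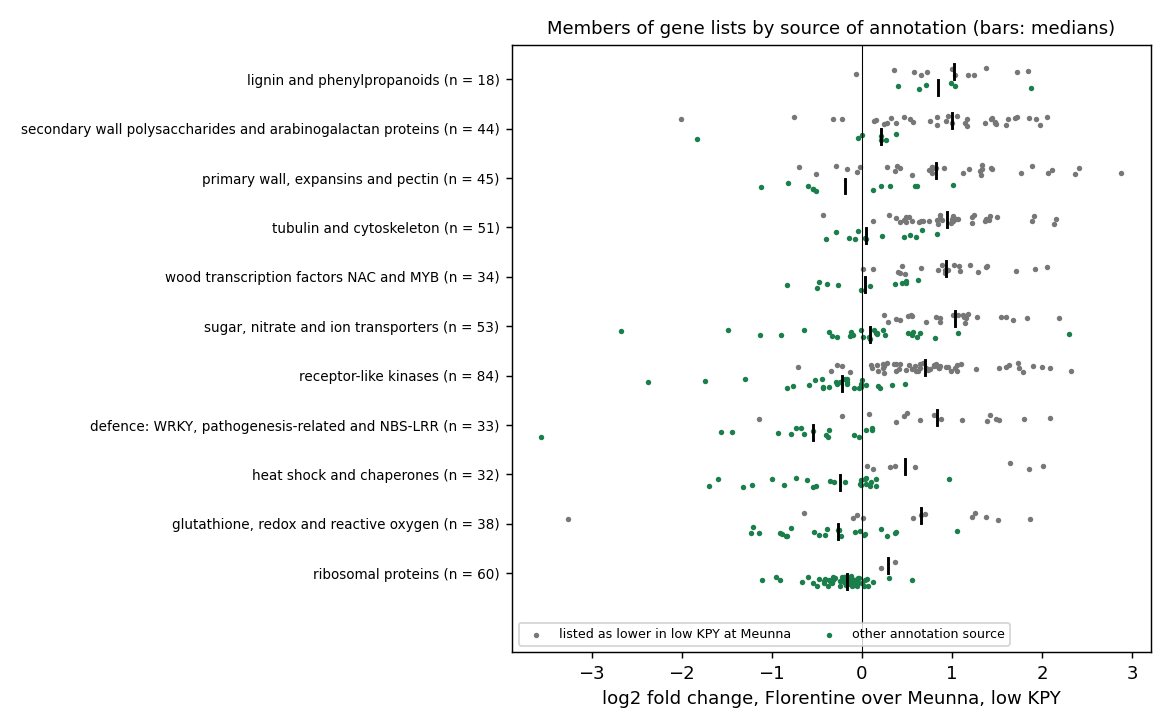
Log2 fold change of Florentine over Meunna in low KPY trees for the tested members of 11 gene lists, 1 point per gene, with grey points for genes from the source of genes lower in low KPY at Meunna and green points for genes from the other sources; black bars are medians. Lignin genes lay to the right of 0 from both kinds of source (median 0.85 for the other sources), the green points of the cytoskeleton list centred near 0 (0.04), and nearly all ribosomal protein genes lay in the green class with a median of -0.17.

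Lignin genes lay above 0 from either kind of source. The 6 lignin genes from other sources had a median of 0.85, and 17 of all 18 members were above 0. CYP98A3 (Eucgr.A02189), the cytochrome P450 that hydroxylates the p-coumaroyl shikimate ester on the way to lignin, had 1527, 1224 and 1526 CPM in the Florentine bulks and 427, 395 and 339.5 CPM in the Meunna bulks. All Florentine bulks were thus far above all Meunna bulks, and the log2 fold change was 1.88 ± 0.15 (SE, FDR = 0.00157, edgeR, n = 3 and 3). This gene remained called without any 1 of the 6 bulks, and in high KPY trees its log2 fold change was 2.32 (FDR = 0.000189). HCT (Eucgr.J03126), the acyltransferase that makes the substrate of CYP98A3, had 495, 295 and 428 CPM in Florentine and 227, 118 and 192 in Meunna (1.18 ± 0.29, FDR = 0.0464). A laccase (Eucgr.G03028), of the oxidases that polymerize lignin in the wall, had 174, 97.7 and 137 CPM against 66.6, 21.7 and 35.8 CPM (1.72 ± 0.42, FDR = 0.0475).

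The other called members of the lignin list, named after their values were seen, were cinnamate-4-hydroxylase (Eucgr.J01844) with a log2 fold change of 1.00 (FDR = 0.0214) and 4-coumarate:CoA ligase 1 (Eucgr.C02284) with 0.99 (FDR = 0.0137), both enzymes of the common phenylpropanoid steps. Phenylalanine ammonia-lyase 2 (Eucgr.J01079), the entry enzyme, had 0.65 and did not pass the test (FDR = 0.126). In high KPY trees 9 of the 18 lignin genes were higher in Florentine and 0 in Meunna, against 16.1% and 17.7% of all genes. Their median there was 0.29. Only 1 lignin gene was left without Florentine replicate 3, against 2 to 7 without any other bulk, and the median stayed between 0.82 and 1.15.

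Cellulose synthase genes of the secondary wall list were higher in Florentine in 2 called cases, and in both replicate 2 lay below the other Florentine bulks. A cellulose synthase (Eucgr.C00246) had 3423, 1291 and 2283 CPM in Florentine and 842, 570.5 and 740.0 in Meunna. The lowest Florentine bulk was still above the highest Meunna bulk, with a log2 fold change of 1.70 ± 0.36 (FDR = 0.0314). Another cellulose synthase (Eucgr.D00476) had 1934, 639 and 1374 CPM against 511, 332 and 463 CPM (1.596 ± 0.40, FDR = 0.0483). TRICHOME BIREFRINGENCE-LIKE 33 (Eucgr.J00170), from a family of polysaccharide acetyltransferases that in Arabidopsis acts on xylan, had 1203, 567 and 1232 CPM against 397, 199.9 and 234 CPM (1.85 ± 0.38, FDR = 0.0298).

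Other members of the family went the other way. TRICHOME BIREFRINGENCE-LIKE 23 (Eucgr.E00070) had 26.5, 12.98 and 20.9 CPM in Florentine and 93.8, 76.3 and 72.7 in Meunna (-2.01 ± 0.27, FDR = 0.00937), and TRICHOME BIREFRINGENCE-LIKE 35 (Eucgr.A00614) had 2.19 to 5.19 CPM against 9.73 to 18.03 CPM (-1.83 ± 0.41, FDR = 0.0366). The 7 secondary wall genes from other sources had a median of 0.21, with 0 higher in Florentine and 1 higher in Meunna. FASCICLIN-like arabinogalactan protein 12 (Eucgr.B02486), a cell surface protein abundant in forming wood and named here after its values were seen, averaged 2242 CPM in Florentine and 539 in Meunna, and its log2 fold change of 2.06 did not pass the test (FDR = 0.0566). Of the 44 members 6 were called in Florentine's favour with all bulks, 13 without Florentine replicate 2, 2 without Meunna replicate 1 and 0 without any other bulk.

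**Figure D2:**
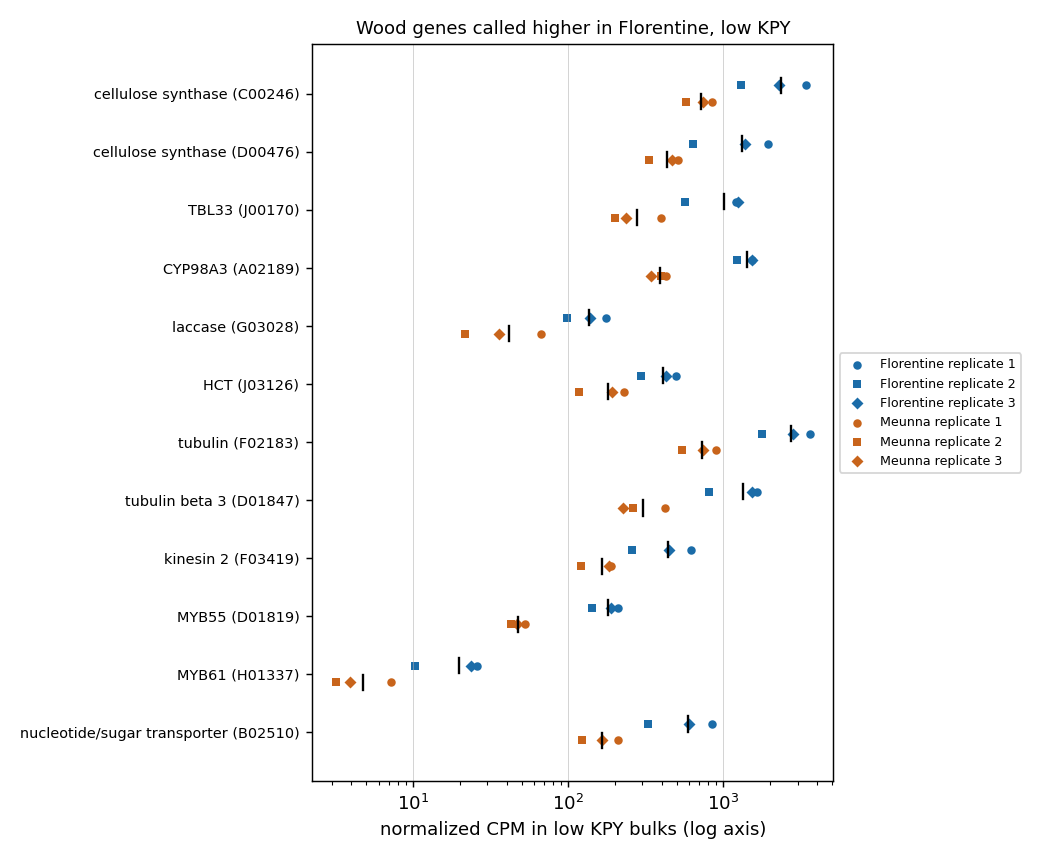
Normalized CPM of 12 wood formation genes higher in Florentine in each low KPY bulk, on a log axis, with Florentine in blue, Meunna in orange, a marker shape for each replicate and a black bar for the mean of 3 bulks. No gene overlapped between sites, and replicate 2 was the lowest Florentine bulk in all 12 genes.

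Microtubule genes, whose products guide cellulose synthases, were also lowest in replicate 2 among the Florentine bulks. Tubulin beta chain 3 (Eucgr.D01847) had 1654, 806 and 1527 CPM in Florentine and 422, 259.6 and 227 CPM in Meunna (2.13 ± 0.35, FDR = 0.0157). A further tubulin (Eucgr.F02183) had 3596, 1764 and 2818 CPM against 898, 539 and 742 CPM (1.91 ± 0.31, FDR = 0.0150), with nearly the same log2 fold change, 1.96, in high KPY trees. Kinesin 2 (Eucgr.F03419), a microtubule motor, had 615, 256 and 447 CPM against 188, 120.3 and 184 CPM (1.42 ± 0.34, FDR = 0.0432). The models of both tubulin genes were longer in Florentine, 2473 against 1597 bases and 2461 against 1815 bases from start to end, while those of kinesin 2 were 5690 and 5726 bases. The 13 cytoskeleton genes from other sources had a median of 0.04 and 0 of them were called. Without Florentine replicate 2 23 of the 51 members were higher in Florentine, and without any other single bulk 0 to 2.

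Among transcription factors of wood the steadiest was MYB55 (Eucgr.D01819), a MYB gene of the kind linked to secondary walls in Arabidopsis, with 210.4, 142 and 188 CPM in Florentine and 52.7, 43.0 and 47.0 in Meunna (1.92 ± 0.17, FDR = 0.00252). It remained called without any 1 bulk, and its models spanned 2270 and 2210 bases. MYB61 (Eucgr.H01337), a regulator of carbon allocation to wood in Arabidopsis, had 25.6, 10.3 and 23.5 CPM against 7.19, 3.18 and 3.95 CPM (2.05 ± 0.45, FDR = 0.0362). A NAC domain gene annotated as NAC 10 (Eucgr.D00591) had 4.49 to 5.54 CPM against 1.42 to 2.33 CPM (1.39 ± 0.29, FDR = 0.0311). One NAC gene, NAC transcription factor-like 9 (Eucgr.A00969), was higher in Meunna with 53.6, 65.9 and 57.4 CPM against 29.4, 34.6 and 35.8 CPM (-0.83 ± 0.14, FDR = 0.0161). The 12 NAC and MYB genes from other sources had a median of 0.04. In Florentine's favour 9 of the 34 were called without Florentine replicate 2, and 1 or 2 without any other bulk.

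Primary wall genes act while cells still expand. Of 45 tested 3 were higher in Florentine and 0 in Meunna, a share of 6.67%, near the 5.06% of all genes. Expansin 11 (Eucgr.F03723), of the proteins that loosen walls, had 5.21, 1.42 and 2.64 CPM in Florentine and 0.509, 0.444 and 0.842 in Meunna (2.37 ± 0.57, FDR = 0.0446). A pectin lyase-like gene (Eucgr.C00786) had 1008, 496 and 822 CPM against 388, 273 and 263 CPM (1.33 ± 0.29, FDR = 0.0336). An invertase and pectin methylesterase inhibitor (Eucgr.A02883) had 10.5, 11.9 and 11.8 CPM against 4.73, 4.28 and 3.51 CPM (1.45 ± 0.21, FDR = 0.0113), and in high KPY trees its log2 fold change was -0.23 (FDR = 0.208). Its test of a different site effect in the KPY classes had the lowest adjusted p of all genes (FDR = 0.114). The list's median of 0.75 turned to -0.19 over the 12 members from other sources.

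Markers of xylem cells, the cells inside the cambium, overlap the wood lists, since 9 of the 15 are also secondary wall genes and 3 are lignin genes. The 15 markers, of which 12 come from the source of genes lower at Meunna, summed to 12664, 4975 and 10024 CPM in the Florentine bulks and to 4217, 2498 and 3144 CPM in the Meunna bulks. All Florentine sums were above all Meunna sums, and 2 of the 15 genes (13.3%, against 11.4% of all genes) were called, both cellulose synthases described above. The 3 markers outside the wood lists, all peptidases, summed to 161, 142 and 143 CPM in Florentine and to 182, 75 and 199 CPM in Meunna, and these groups overlapped. One of them, xylem cysteine peptidase 1 (Eucgr.F03589), a protease of dying vessel cells in Arabidopsis, had a log2 fold change of -0.07 (FDR = 0.928). The median log2 fold change was 1.25 over the 15 markers and 0.21 over the 3 named from other sources than the genes lower at Meunna. The 4 phloem markers summed to 19.2 to 46.02 CPM in Florentine and 15.4 to 30.8 in Meunna, the 7 photosynthesis markers to 171 to 276 and 152 to 220.2, and the 2 cork markers to 64.0 to 94.6 and 37.0 to 55.1 CPM. No marker was at 0 in any bulk. A larger share of xylem cells in the scrapings and more RNA of these genes per cell cannot be told apart in bulk RNA, and the part of cell makeup in the wood gene differences was not tested.

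Of 53 sugar, nitrate and ion transporters 11 were higher in Florentine and 1 in Meunna (22.6% called against 11.4% of all genes, median 0.52). A nucleotide/sugar transporter (Eucgr.B02510), of a family that supplies wall synthesis in the Golgi, had 847, 327 and 597 CPM in Florentine and 209, 122 and 165 in Meunna (1.83 ± 0.37, FDR = 0.0279). Amino acid permease 7 (Eucgr.F03657) had 74.1, 34.7 and 97.2 CPM against 29.2, 20.1 and 14.98 CPM (1.68 ± 0.41, FDR = 0.0472), and a nodulin MtN21 and EamA-like transporter (Eucgr.B02543) had 8.26 to 9.08 CPM against 0.784 to 2.32 CPM (2.30 ± 0.42, FDR = 0.0215). On the Meunna side an amino acid transporter (Eucgr.B03899) had 20.9, 40.9 and 18.004 CPM against 5.89, 3.88 and 2.76 CPM (-2.67 ± 0.43, FDR = 0.0141). The 29 transporters from other sources had a median of 0.09, with 3 higher in Florentine and 1 in Meunna. In the whole list 18 were higher in Florentine without Florentine replicate 2, and 1 to 5 without any other bulk. The aquaporin PIP2;4 (Eucgr.J00930), a water channel of the plasma membrane named from the allelic calls, had 2430, 2174 and 2537 CPM against 1632, 1380 and 1399 CPM (0.70 ± 0.14, FDR = 0.0273) and 0.67 in high KPY trees.

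Ribosomal protein genes leaned to Meunna by small amounts. Of 60 tested 6 were higher in Meunna and 1 in Florentine, which at 11.7% called is near the 11.4% of all genes, but 50 of the 60 had a log2 fold change below 0 and the median was -0.17 against -0.01 for all genes. All but 2 of them were named from other sources than the genes lower at Meunna. Ribosomal protein S4 (Eucgr.H02737) had 479, 491 and 478 CPM in Meunna and 233, 267 and 249.9 in Florentine, groups far apart for their spread (-0.95 ± 0.10, FDR = 0.00382). It remained called without any 1 bulk. Ribosomal protein S16 (Eucgr.C03473) had 24.7 to 34.9 CPM in Meunna against 13.6 to 13.8 CPM (-1.11 ± 0.17, FDR = 0.0122), and a protein of the L18e and L15 family (Eucgr.K02805) 359 to 462 against 245 to 292 CPM (-0.66 ± 0.14, FDR = 0.0314).

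The exception was ribosomal protein S13A (Eucgr.G02515), with 136, 143 and 151 CPM in Florentine and 103, 83.95 and 104 in Meunna (0.56 ± 0.12, FDR = 0.0337). The median of the list stayed between -0.18 and -0.11 without any 1 bulk. In these fits 1 to 6 genes were higher in Meunna and 0 in Florentine, so the S13A call was lost in each. In high KPY trees 17 were higher in Meunna and 4 in Florentine, against 17.7% and 16.1% of all genes, with a median of -0.14. Members of this family have near-identical copies that can share reads, so single values are uncertain. A subunit of cytochrome c oxidase, the last complex of mitochondrial respiration (Eucgr.C00220), had 110.5 to 133 CPM in Meunna against 77.3 to 92.1 CPM (-0.52 ± 0.12, FDR = 0.0421), the single call among 9 respiration genes.

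Of 32 heat shock and chaperone genes 3 were higher on each side by edgeR (18.8% called against 11.4% of all genes). With 1 bulk left out, 0 to 4 were higher in Florentine and 0 to 3 in Meunna. DESeq2 called 3 higher in Florentine and 7 in Meunna, where it called 24.9% of all genes. In high KPY trees edgeR called 3 and 14, against 16.1% and 17.7% of all genes. Higher in Meunna were HSP90.1 (Eucgr.A02734), a chaperone induced by heat, with 129, 313 and 142 CPM against 59.9, 70.8 and 61.6 CPM (-1.601 ± 0.35, FDR = 0.0338), and heat shock factor A9 (Eucgr.C00873), a transcription factor of seed maturation in Arabidopsis, with 60.7, 87.7 and 57.8 CPM against 19.4, 37.7 and 25.5 CPM (-1.32 ± 0.28, FDR = 0.0329). The constitutive chaperone HSC70-1 (Eucgr.J00023) had 505, 535 and 506 CPM in Meunna and 315, 299 and 316 in Florentine (-0.73 ± 0.10, FDR = 0.00824). Replicate 2 of Meunna was the highest bulk in all 3. The 3 genes higher in Florentine are BAG genes, which encode co-chaperones that bind HSP70, and all 3 come from the source of genes lower at Meunna. Of them Eucgr.K00225 had 1646, 731 and 1170 CPM against 437, 342 and 358 CPM (1.64 ± 0.29, FDR = 0.0201), while Eucgr.L01966 and Eucgr.D01920 lay under 5 CPM in every bulk.

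Calls among other stress genes were 2 of 12 cold and dehydration genes (16.7%) and 1 of 5 dormancy and senescence genes (20%), against 11.4% of all genes. A senescence and dehydration-associated gene (Eucgr.C00998) had 245.9, 318 and 216 CPM in Meunna and 63.5, 103 and 102 in Florentine (-1.54 ± 0.23, FDR = 0.0125), and a late embryogenesis abundant hydroxyproline-rich gene (Eucgr.F03133) was higher in Florentine with 67.2, 48.7 and 63.8 CPM against 32.4, 22.006 and 14.98 CPM (1.37 ± 0.29, FDR = 0.0321). These genes are both cold and dehydration calls, and the first is also the senescence call. Of 13 clock and light signalling genes 0 were called by edgeR (3 at an unadjusted p under 0.05). DESeq2 called 3, all higher in Florentine, where it called 24.9% of all genes. Without Florentine replicate 2 edgeR called 2 of the 13, and 14.1% of all genes. The high KPY comparison had 3 of them higher in Florentine and 2 in Meunna, against 16.1% and 17.7% of all genes. The most abundant of them, the cold and circadian RNA-binding protein 2 (Eucgr.E01060), had 1749, 2058 and 1968 CPM in Florentine and 2184, 2133 and 1940 in Meunna (-0.12 ± 0.13, FDR = 0.585).

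**Figure D3:**
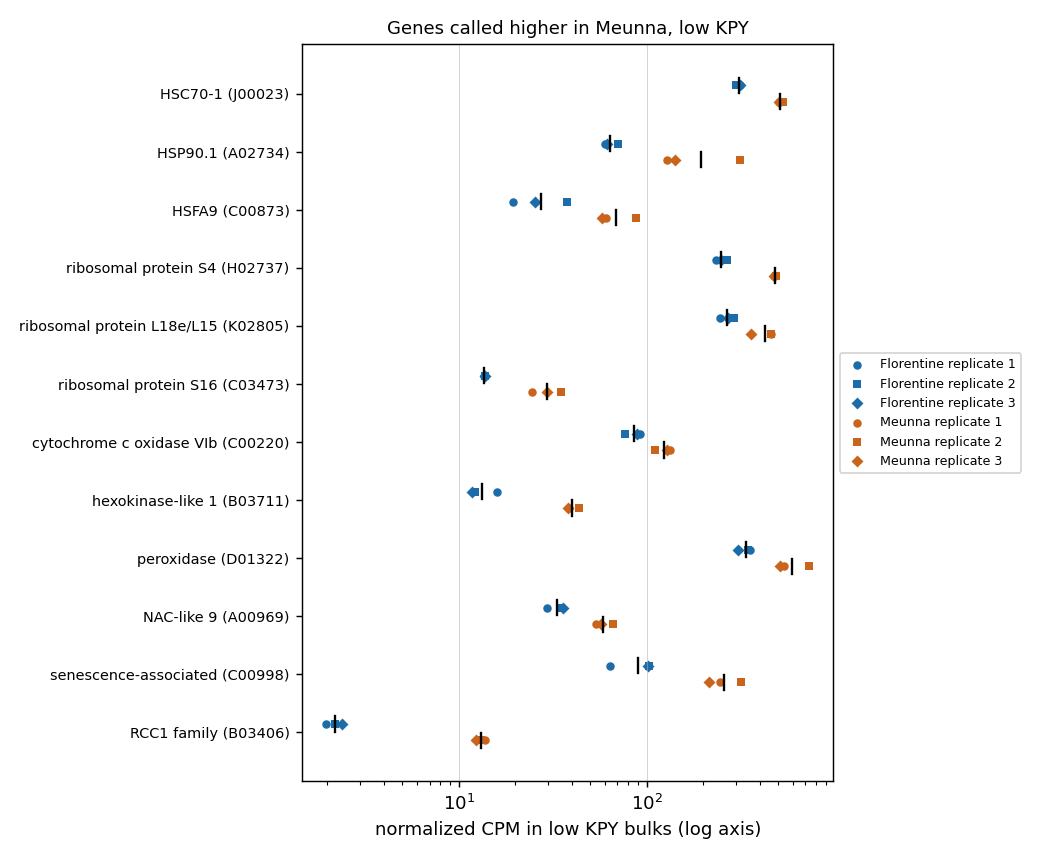
Normalized CPM of 12 genes higher in Meunna in each low KPY bulk, on a log axis, with Florentine in blue, Meunna in orange, a marker shape for each replicate and a black bar for the mean of 3 bulks. No gene overlapped between sites, and the bulks of ribosomal protein S4 and HSC70-1 lay close together within each site.

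Defence genes went both ways. Of 33 genes of WRKY factors, pathogenesis-related and NBS-LRR proteins 4 were higher in Florentine, all 4 from the source of genes lower at Meunna, and 2 in Meunna, together 18.2% against 11.4% of all genes. DESeq2 called 8 and 4, where it called 24.9% of all genes. Without any 1 bulk 0 to 4 and 0 to 2 were called. WRKY13 (Eucgr.I00305), which in Arabidopsis promotes lignin in stems, had 126, 71.7 and 103 CPM in Florentine and 40.9, 23.5 and 42.6 in Meunna (1.49 ± 0.29, FDR = 0.0273). MLO family genes, named for a barley gene of mildew susceptibility, stood on opposite sides: Eucgr.J02452 had 20.7, 10.5 and 27.2 CPM in Florentine against 5.45, 4.26 and 7.11 CPM (1.80 ± 0.39, FDR = 0.0331), and Eucgr.B02482 had 6.29, 16.4 and 13.4 CPM against 30.9, 41.4 and 34.9 CPM in Meunna (-1.57 ± 0.35, FDR = 0.0364). A pathogenesis-related thaumatin (Eucgr.L02491) had 29.1, 18.9 and 34.6 CPM against 14.1, 6.59 and 10.8 CPM (1.39 ± 0.34, FDR = 0.0472). A TIR-NBS-LRR resistance gene (Eucgr.D02415) was higher in Meunna with 10.4, 1.33 and 3.86 CPM against 0.178 to 0.603 CPM (-3.56 ± 0.86, FDR = 0.0455), and in high KPY trees its log2 fold change was 0.13 (FDR = 0.878).

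Receptor-like kinases, 84 genes of signal perception, held 4 higher in Florentine and 1 in Meunna, 5.95% against 11.4% of all genes. All 4 come from the source of genes lower at Meunna. The 28 members from other sources had a median of -0.22, with 0 higher in Florentine and 1 in Meunna. The strongest call of the list by fold change was a leucine-rich repeat kinase (Eucgr.A01951) with 196, 155 and 187 CPM in Meunna against 13.5, 30.2 and 59.7 CPM (-2.38 ± 0.50, FDR = 0.0307). An S-locus lectin kinase (Eucgr.A01746) had 4.39 to 6.35 CPM in Florentine against 1.47 to 1.54 CPM (1.90 ± 0.27, FDR = 0.0112), and receptor-like kinase 1 (Eucgr.H00539) 406, 154 and 321 against 123, 68.7 and 99.4 CPM (1.595 ± 0.38, FDR = 0.0438). Another kinase higher in Florentine (Eucgr.H02636, 1.79 ± 0.38, FDR = 0.0313) was counted on a model of 3223 bases there and of 508 bases in Meunna.

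Among hormone genes edgeR called 3 of 24 of auxin (12.5%) and 2 of 5 of gibberellin, against 11.4% of all genes. It called 0 of 10 ethylene, 0 of 4 abscisic acid and 0 of 4 jasmonate genes, of which 2, 1 and 2 had an unadjusted p under 0.05. DESeq2 called 2, 1 and 2 of them, where it called 24.9% of all genes. There were 5, 2 and 3 edgeR calls among them in high KPY trees, where 33.7% of all genes were called. Auxin promotes cambial division and orders xylem formation. An auxin-responsive gene (Eucgr.K00658) had 419, 242 and 326 CPM in Florentine and 115, 66.4 and 91.8 in Meunna (1.85 ± 0.27, FDR = 0.0113), on models of 4780 and 1652 bases. Of SAUR genes, early targets of auxin, Eucgr.A01420 was higher in Florentine (196 to 292 against 82.9 to 125 CPM, 1.20 ± 0.21, FDR = 0.0182) and Eucgr.D02026 in Meunna (21.7 to 42.8 against 3.38 to 11.1 CPM, -2.04 ± 0.48, FDR = 0.0430). Both called gibberellin genes, of 5, belong to the gibberellin-regulated family of small secreted proteins. Both were higher in Florentine and come from the source of genes lower at Meunna. The median of the 5 was -0.25, with 2 of them above 0. In high KPY trees 0 of the 5 were higher in Florentine and 2 in Meunna, against 16.1% and 17.7% of all genes. Eucgr.B03715 had 9.09, 2.10 and 2.16 CPM in Florentine against 0.212, 0.164 and 0.0581 CPM (4.87 ± 0.84, FDR = 0.0180), and Eucgr.F00593 had 6.57, 7.88 and 7.47 against 2.25, 1.08 and 1.71 CPM (2.12 ± 0.33, FDR = 0.0135).

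Carbon and redox metabolism gave single genes on either side. Hexokinase-like 1 (Eucgr.B03711), related to the enzyme that phosphorylates hexoses, had 38.5, 43.8 and 38.4 CPM in Meunna and 15.9, 12.3 and 11.8 in Florentine (-1.59 ± 0.17, FDR = 0.00382), and remained called without any 1 bulk. Trehalose-phosphatase/synthase 9 (Eucgr.B03950) had 97.4 to 101 CPM against 57.5 to 67.5 CPM (-0.63 ± 0.11, FDR = 0.0182), and beta-amylase 2 (Eucgr.E00138), of the starch-degrading family, was higher in Florentine with 28.2 to 51.0 against 13.8 to 19.6 CPM (1.21 ± 0.25, FDR = 0.0313). A peroxidase (Eucgr.D01322) had 542, 736 and 514 CPM in Meunna against 357, 348 and 306 CPM (-0.83 ± 0.17, FDR = 0.0279).

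Glutathione S-transferases, which conjugate glutathione to reactive compounds, split between PHI 9 and PHI 10. PHI 9 (Eucgr.K01236) had 28.0, 13.6 and 19.5 CPM in Meunna against 2.84, 1.304 and 2.24 CPM (-3.26 ± 0.40, FDR = 0.00659), and PHI 10 (Eucgr.K01233) had 13.7, 7.03 and 14.2 CPM in Florentine against 3.94, 1.497 and 4.12 CPM (1.87 ± 0.47, FDR = 0.0495). These are neighbouring members of one family, and reads can be shared between them. Glutamine synthetase 2 (Eucgr.B01170), which assimilates ammonium, was higher in Florentine with 24.3, 85.96 and 90.5 CPM against 3.75, 5.14 and 2.00 CPM (4.20 ± 0.61, FDR = 0.0113).

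Several regulators and kinases with low counts were higher in Florentine. Cytokinin-responsive GATA factor 1 (Eucgr.C03048) had 3.20, 1.25 and 3.16 CPM against 0.170, 0.281 and 0.174 CPM (3.58 ± 0.53, FDR = 0.0119), and its log2 fold change in high KPY trees was 0.79 (FDR = 0.107). Calcium-dependent protein kinase 20 (Eucgr.A02545) had 21.4, 6.46 and 14.2 against 3.05, 1.099 and 1.86 CPM (2.80 ± 0.56, FDR = 0.0276). A RIN4 family gene (Eucgr.J02272), related to an immune regulator of Arabidopsis, had 6.25, 4.51 and 6.87 against 0.721, 0.865 and 0.726 CPM (2.92 ± 0.30, FDR = 0.00365) and remained called without any 1 bulk.

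On the Meunna side the largest named differences with tight bulks included an RCC1 family gene (Eucgr.B03406), with 13.9, 13.1 and 12.3 CPM against 1.98, 2.19 and 2.38 CPM (-2.58 ± 0.21, FDR = 0.00146), and an aspartyl protease (Eucgr.B01136), with 28.3, 22.7 and 21.7 against 3.05, 5.13 and 4.45 CPM (-2.52 ± 0.25, FDR = 0.00338). Cation exchanger 3 (Eucgr.A00502), of a family that moves calcium into the vacuole, had 28.5, 54.5 and 39.9 against 5.35, 4.24 and 9.63 CPM (-2.67 ± 0.39, FDR = 0.0113). All 3 remained called without any 1 bulk. A TPX2 family gene (Eucgr.J01635), related to spindle microtubule proteins, had 35.3, 24.3 and 24.6 against 4.13, 1.25 and 3.94 CPM (-3.18 ± 0.47, FDR = 0.0115), on models of 1596 bases in Meunna and 1070 bases in Florentine.

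Some of the largest differences were near presence and absence, and for a few of them the models or neighbouring ids of the trials differed. The choline monooxygenase-like gene (Eucgr.C00092) had 673, 497 and 602 CPM in Florentine and 0.594, 0.327 and 0.319 in Meunna (10.44 ± 0.31, FDR = 6.41e-05). Its model covered 6139 bases of scaffold 3 in Florentine (3563503 to 3569641) and 375 bases in Meunna (3563499 to 3563873), on the E. grandis genome that the study used. In the Florentine table its counts of 18739, 16783 and 20950 were 1.07 times those of the next model, Eucgr.C00094 (17647, 15821 and 19668), a ratio that varied by under 5% over the 6 Florentine libraries. Eucgr.C00094 itself had 16873, 19298 and 13354 counts in Meunna, of the same order as in Florentine. These counts are not scaled to library size, which was 44538273 to 53775708 in Florentine and 49489614 to 70097142 in Meunna.

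Elsewhere a neighbouring id was high in the other table. The hAT dimerisation gene (Eucgr.C00096), of a transposon-derived family, had 251, 302 and 354 CPM in Meunna and 3.38, 7.14 and 4.40 in Florentine (-5.92 ± 0.33, FDR = 0.000566), while the id before it, Eucgr.C00095, had 12643, 9634 and 11638 counts in Florentine and is not listed in Meunna. The aldolase gene (Eucgr.F02017) had 554, 271 and 390.1 CPM in Florentine and 2.88, 1.33 and 2.178 in Meunna (7.56 ± 0.44, FDR = 0.000566), and its neighbour Eucgr.F02018 had at most 861 counts in a Florentine bulk and 18366, 10635 and 9268 counts in the Meunna bulks. Of the 180 called genes past 4-fold, 19 (10.6%) had an id within 3 numbers at a level within 2-fold in the other table. In the table where the gene was high, each such id was not listed or was over 4-fold lower. Only Eucgr.F02018, beside Eucgr.F02017, was listed there. The share among all tested genes was not computed, so 10.6% is not shown to be particular to called genes. These 19, a count chosen after seeing the data, include Eucgr.H04381 (NIMA-related kinase 2, -2.74) and Eucgr.H01743 (fringe-related, 3.05). For such genes a difference between sites and a read given to another id cannot be told apart.

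**Figure D4:**
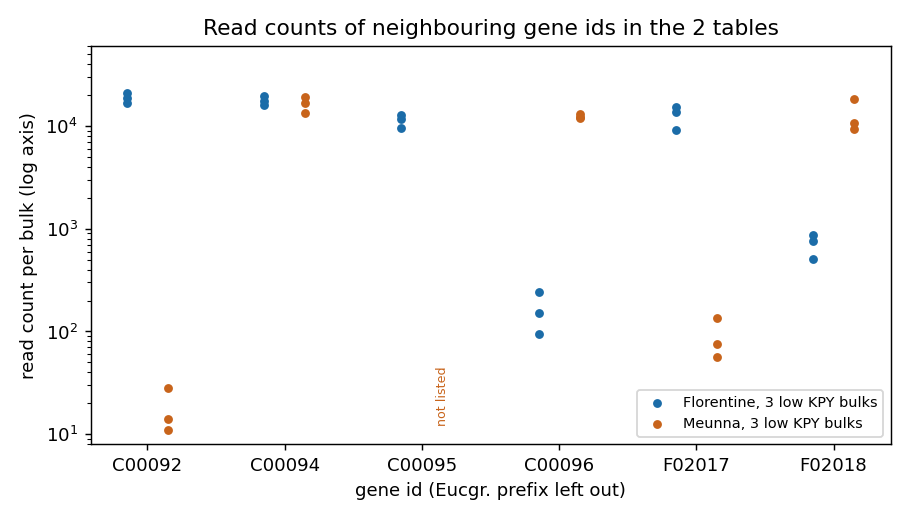
Read counts in the 3 low KPY bulks of each site for gene ids around Eucgr.C00092 and for Eucgr.F02017 and Eucgr.F02018, on a log axis, with Florentine in blue and Meunna in orange; for ids with more than 1 transcript the highest is shown. Counts are not scaled to library size. Those of Eucgr.C00094 were of the same order in both tables. Eucgr.C00092 and Eucgr.F02017 were high in Florentine alone, Eucgr.C00096 and Eucgr.F02018 high in Meunna alone, and Eucgr.C00095 is not listed in Meunna.

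Model length was known in both trials for 888 tested genes, all from the source of genes lower at Meunna. In 510 of them the lengths agreed within 5%, and 85 (16.7%) of these were called, while 81 (21.4%) of the other 378 were called. Over all tested genes 11.4% were called. Of the 166 calls among the 888 genes, 164 were higher in Florentine. The 888 genes were listed on these same Meunna bulks, so these shares are not independent evidence of the calls. The standard deviation of the log2 fold change was 0.63 with similar lengths and 0.95 without. Across the 888 genes, which are not independent replicates, the log2 ratio of lengths and the log2 fold change had a Pearson correlation of 0.31 and a Spearman correlation of 0.14. Further large differences lay on unequal models, as in a DNA glycosylase (Eucgr.E04327, 24.2, 7.26 and 19.9 against 0.509, 0 and 0.116 CPM, 6.28 ± 1.05, FDR = 0.0164) with 1690 and 901 bases, and in the RNA polymerase III subunit gene (Eucgr.L03092, 3.62 ± 0.61, FDR = 0.0172) with 922 and 392 bases. Of the genes without a name and with the largest differences, for which model lengths were not used here, Eucgr.A00688 (195 to 232 against 4.60 to 6.77 CPM) and Eucgr.B01297 (225 to 269 against 6.11 to 8.82 CPM) were higher in Florentine. Eucgr.F01982 (103 to 125 against 1.75 to 2.73 CPM) and Eucgr.E02058 (96.8 to 164 against 8.08 to 12.0 CPM) were higher in Meunna.

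The site difference of low KPY trees was then set beside that of high KPY trees, which uses the other 6 libraries but the same transcript models. In high KPY trees 4125 genes (33.7%) were called, 1967 (16.1%) higher in Florentine and 2158 (17.7%) higher in Meunna. Of the 1392 low KPY calls, 1177 (84.6%) were called in the same direction in high KPY trees, and these are 28.5% of the high KPY calls. The sign was shared by 98.8% of the low KPY calls and by 81.4% of all genes. There were 214 low KPY calls not called in high KPY trees, 115 of them higher in Florentine and 99 in Meunna.

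A different site effect in the KPY classes was tested as an interaction over all 12 libraries, and 0 genes passed by edgeR (790 at an unadjusted p under 0.05, 202 of them called in low KPY), while DESeq2 called 65. Genes with a large value in low KPY and a small one in high KPY are therefore not shown to differ between the classes. Among them were the gibberellin-regulated Eucgr.B03715, with 4.87 in low and 0.65 in high KPY trees (interaction FDR = 0.314), UDP-glucosyl transferase 88A1 (Eucgr.F02998), with 2.14 and 0.25 (interaction FDR = 0.204), and MLP-like protein 31 (Eucgr.B02925), with -2.47 and -0.30 (interaction FDR = 0.639). Of the wood genes CYP98A3, both tubulins and MYB55 had 1.39 to 2.32 in high KPY trees, while values were smaller there for HCT (0.35 against 1.18), the laccase (1.04 against 1.72) and the cellulose synthases (1.01 against 1.70 and 0.93 against 1.596). The list medians were also smaller in high KPY trees, 0.37 for secondary wall, 0.29 for lignin, 0.53 for cytoskeleton and 0.27 for NAC and MYB genes. Most members (37 of 44, 12 of 18, 38 of 51 and 22 of 34) came from the source of genes lower in low KPY at Meunna. So did HCT, the laccase and both cellulose synthases. The 1259 genes of that source had medians of 0.85 in low and 0.35 in high KPY trees. That listing used these same Meunna bulks, so the smaller values are not independent evidence of a class difference.

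**Figure D5:**
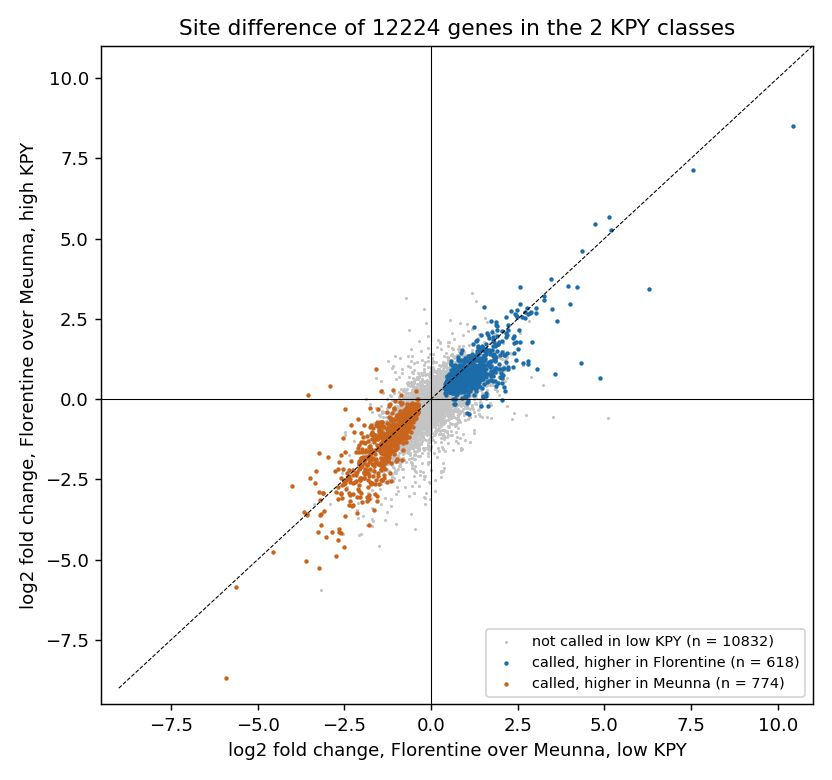
Log2 fold change of Florentine over Meunna in low KPY trees (x axis) and in high KPY trees (y axis) for 12224 genes, with genes called in low KPY trees in blue (618, higher in Florentine) and orange (774, higher in Meunna), other genes in grey and the line of equal values dashed. Called genes lay mostly along the dashed line, 17 of the 1392 had the opposite sign in high KPY trees, and the axes share transcript models but no library.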

How the data were processed

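RNA from cambial scrapings was measured in 12 libraries, and the 3 low KPY bulks of each trial were compared. The authors trimmed reads, pooled and mapped those of each trial with TopHat and Bowtie against E. grandis, ran Cufflinks on each trial separately to predict transcripts, kept transcripts of at least 1 CPM in 3 libraries, and deposited 1 table of read counts per trial made with BEDtools. The genome version and the strand setting are not given in the sources used here, so overlapping models can share reads.

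Gene ids with 1 transcript in each table were joined, and counts were tested in R 4.3.3 with edgeR 4.0.16 (quasi-likelihood F test, TMM over the 6 libraries, Benjamini-Hochberg FDR of 0.05, no further filter). Standard errors were derived as the absolute log2 fold change over the root of the F statistic. DESeq2 1.42.0, other normalizations, filters, gene sets, a replicate block and leaving out each library were alternatives. Gene names are Arabidopsis matches in the study's supplementary tables, some used in part, whose fold changes and p-values were not used. The members, the lists and the comparison were chosen with earlier results of these data known. Named genes were, among called genes without overlap, the 5 largest differences in each direction, the 12 largest with an annotation, and up to 3 per list and direction (for a list with no call, its most abundant member). Not every such gene is described. p-values set the site difference against the spread between bulks of different trees. Each side is a single trial, so they do not cover spread between sites. Promoter and protein sequences were not used here.

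A replicate number marks no shared tree or plot between sites. For this reason the numbers were not treated as pairs. The deviations of same-numbered bulks from their site means had correlations of 0.21, 0.38 and -0.01, and those of differently numbered bulks ran from -0.34 to 0.20.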

Additional observations from a re-analysis of the deposited data

Results flagged for a closer look

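One gene was called in opposite directions in the KPY classes. Eucgr.K00087, which has no annotation here, was higher in Florentine in low KPY trees, with 42.4, 49.9 and 57.2 CPM against 30.7, 20.1 and 22.5 CPM and a log2 fold change of 1.03 (edgeR, FDR = 0.0273). In high KPY trees it was higher in Meunna, with a log2 fold change of -0.42 (FDR = 0.0461). The bulks of the sites did not overlap in either class, but the interaction did not pass the test over all genes (log2 difference 1.49, edgeR, FDR = 0.225).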

How the results depend on the processing

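The 1392 calls of the site comparison in low KPY trees were between 1318 and 1527 under RLE, upper-quartile or no normalization factors, library sizes of the whole tables, the robust and both quasi-likelihood versions, filterByExpr, a minimum of 5 CPM, identical counts entered once and without the 350 genes that have a neighbouring model of proportional counts, the last and the version with legacy = FALSE chosen after seeing the data. They were 3042 by DESeq2, 2216 by the exact test, 2243 by the likelihood ratio test, 235 at an FDR of 0.01 and 108 against a minimum log2 change of 1. With all 12 libraries in 1 fit 3273 genes were called, 59.4% of them higher in Florentine against 44.4% in the fit of 6. Over all 16184 ids shared by the trials, summing transcripts gave 3277 calls and the top transcript alone 2272. In the 510 genes with spans within 5% 70 were called, 33 higher in Florentine, since normalizing within this selected set centres it near 0. Leaving out 1 library gave 200 to 1726. With a replicate block 1940 were called, 53.5% higher in Florentine, and 1258 of the 1392 were among them; the numbers are not pairs, and the interaction with a block called 0. In high KPY trees leaving out 1 library gave 2336 to 4933. For the interaction DESeq2 called 65, and leaving out 1 library gave 0 to 1, the 1 without Florentine low KPY replicate 2.

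Of 87 named genes that were called, all kept their direction under every alternative tried on them, and 19 remained called without any 1 library, while the others were lost in at least 1 fit of 5 libraries. Of those not called, lipoxygenase 1 (Eucgr.H04500) went from 0.05 to -0.03 with library size only and ranged from -0.08 to 0.11 without 1 library, and the phloem marker Eucgr.F02749 from -0.26 to 0.52. Depth did not limit well expressed genes, but 1 CPM was only 27.8 to 47.2 counts, so genes under 1 CPM rest on few reads.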

Other observations

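Gene ids listed in 1 table alone could not enter the comparison. There were 796 ids in the Florentine table alone, with a median of the mean low KPY level of 2.88 CPM and 16 of them over 100 CPM, and 1798 ids in the Meunna table alone, with a median of 2.83 CPM and 17 over 100 CPM. An id at such a level in one table and not listed in the other, as Eucgr.C00095 is, was not counted as a difference between the sites.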
